A study of Mus musculus with 18 samples.

Results

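The genes described are the transcriptional regulators that link fat storage, fat burning and mitochondrial content in adipocytes: the 3 peroxisome proliferator-activated receptors (Ppara, Ppard, Pparg), the PGC-1 coactivators Ppargc1a and Ppargc1b, the 3 oestrogen-related receptors (Esrra, Esrrb, Esrrg), Prdm16 and Nrip1. Every probe that is not a control and whose gene name on the array is one of these 10 symbols was taken, which gave 18 of 41174 probes. Of these 18 probes, 16 (9 genes) were tested, because some group had all 3 of its arrays well above background there. Both Esrrb probes fell out at this step, the 3′ probe of Esrrg passed it only through the brown fat groups, and the Ppard probe passed it only through the brown SVF.

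RNA came from young adult male C57BL/6 mice, with no transgene, deletion or drug in any group named by the labels. Interscapular brown, inguinal and epididymal fat were each digested with collagenase and separated by centrifugation into floating adipocytes and the pelleted stromal-vascular fraction (SVF), a mixture of progenitors, vessel cells and immune cells from which erythrocytes had been lysed. Each of the 6 groups has 3 biological replicates and 1 array per replicate. The labels do not say whether animals were pooled, so p-values measure the spread between these samples.

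A level is the log2 processed signal of a probe minus the 75th percentile of its array, so that 0 is a bright probe and not an absent one. Levels of different probes cannot be set against each other. Adipoq, an adipocyte hormone, lay between 7.41 and 8.79 on the 9 adipocyte arrays, and between 0.65 and 4.42 on all SVF arrays but brown SVF replicate 2, where it was 7.16. Ucp1, the uncoupling protein of brown fat, lay between 7.24 and 8.11 in brown adipocytes and between 3.64 and 4.50 in the brown SVF, but at -4.08 or lower in the inguinal SVF. It was 4.51 in epididymal adipocyte replicate 3 against -3.34 and -1.05 in the other replicates of that group. The mesothelial marker Msln was at 6.16 in inguinal SVF replicate 1. In inguinal SVF replicate 2 the mean of the 7 skeletal muscle markers was 1.47, against -2.89 and -3.65 in replicates 1 and 3. The mean of the 4 T and B cell markers was 1.03, 0.78 and -3.03 in inguinal adipocyte replicates 1, 2 and 3. It was -2.33, 0.18 and 3.03 in inguinal SVF, and ran from -3.38 to -0.87 in the other groups. The part of these markers in the inguinal results was not tested. Fractions are bulk samples, so fewer cells of a type and less RNA per cell cannot be told apart. The 5 mature adipocyte markers moved with the fractions: their mean level was 4.93 or higher on every adipocyte array and lay between 0.91 and 3.93 in brown SVF (3.93 in replicate 2), -1.03 and 1.33 in inguinal SVF and 0.90 and 2.31 in epididymal SVF. The mean of the 6 progenitor and fibroblast markers ran from 3.98 to 5.51 in SVF. In adipocytes it ran from -0.11 to 0.91 in brown, 1.17 to 3.23 in inguinal and 2.10 to 2.89 in epididymal fat. The mean of the 5 macrophage markers ran from -3.61 to -1.71 in brown, -1.72 to 0.89 in inguinal and -0.27 to 0.92 in epididymal adipocytes. The part of these lists in the fraction differences, or in the differences between adipocytes of the depots, was not tested. All SVF and brown adipocyte arrays were read with one version of the scanner software and all inguinal and epididymal adipocyte arrays with another, on slides of their own. For the inguinal and epididymal fraction differences and for brown against the other adipocytes, slide and software version cannot be told apart from the groups.

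PPARs are nuclear receptors that are activated by fatty acids and their derivatives and bind DNA as partners of the retinoid X receptors. PPARγ is the master regulator of adipocyte differentiation and of the genes of lipid storage, while PPARα and PPARδ switch on fatty acid oxidation. PGC-1α and PGC-1β, encoded by Ppargc1a and Ppargc1b, carry no DNA-binding domain that would give them target sites of their own. They dock on PPARs and on the oestrogen-related receptors, orphan receptors that bind the promoters of respiratory chain and citrate cycle genes, and raise transcription there. PGC-1α is induced in brown fat by cold. Prdm16 is a zinc finger protein that promotes the brown and beige fat programme, and Nrip1 (RIP140) is a corepressor of these same nuclear receptors.

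Several of the genes are measured by more than 1 probe of 60 bases, and the probes of Ppargc1a, Esrra and Esrrg are shown because their readings differ within the gene in the results that follow. The first 30 bases of each are given 5′ to 3′ as deposited, and positions are those of the file headers' mm8 annotation. The files do not say whether a probe lies in a coding exon or an untranslated region.
Ppargc1a 5′ probe: ccccttcaaatggcagcatttccatgaaga
Ppargc1a 3′ probe: attcatttatcaccagcatattgtgttctg
Esrra 3′ probe: atgccctgcagagcaataacactatattta
Esrra 5′ probe: ggggaggtgaaactgacttggtcagaactg
Esrrg 5′ probe: ccctcccatcctgcacgttgaaaagggaag
Esrrg 3′ probe: ttagccatgcaatttgcagttttattttcc
The Ppargc1a probes lie on the minus strand at chr5:51745937-51745996 (A_51_P279038) and, 2031 bases further 3′, at chr5:51743906-51743965 (A_52_P5945). Those of Esrra are on the minus strand at chr19:6978153-6978212 (A_51_P248580) and, 5571 bases toward the 5′ end, at chr19:6983724-6983783 (A_52_P198949). The plus-strand Esrrg probes are at chr1:189911946-189912005 (A_51_P224192) and, 3081 bases further 3′, at chr1:189915027-189915086 (A_52_P317246). GC content was 45.0% in the 5′ and 35.0% in the 3′ probe of Esrrg, 38.3% and 41.7% in the 5′ and 3′ probes of Ppargc1a, and 50.0% in both Esrra probes. RefSeq (build GRCm38.p6) lists 4 transcription starts for Esrrg, 3 for Pparg and 1 each for Ppargc1a and Esrra, and the probes do not tell the isoforms apart.

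The calls on these regulators ran almost all one way, to higher levels in adipocytes than in SVF and in brown than in other adipocytes. Differences are log2 values with their standard error, tested with limma on all probes of the array, and a call is a Benjamini-Hochberg adjusted p under 0.05. In brown fat 8 of the 16 probes (5 genes) were higher in adipocytes and none was lower, where 10.9% of all tested probes were higher. Inguinal fat had 7 higher probes (5 genes) against a background of 9.17%, and epididymal fat 7 (4 genes) against 16.3%. The share of all tested probes lower in adipocytes is not reported here, so the absence of lower calls has no background. The median difference of the 16 probes was 1.83, 1.15 and 1.03 in brown, inguinal and epididymal fat, and the median of all tested probes was 0.12, 0.01 and 0.08.

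Between brown and inguinal adipocytes, 7 probes of 4 genes were higher in brown (6.14% of all probes) and 1, for Nrip1, was lower (4.96%). Between brown and epididymal adipocytes, 9 probes of 6 genes were higher (11.0%) and 1, for Esrrg, was lower (14.1%). The medians were 1.54 and 2.00 against 0.18 and 0.01 over all probes. Both counts of higher probes include the 3′ probe of Esrrg, which passed the filter only through the brown fat groups. No probe was called between inguinal and epididymal adipocytes, where 6 of the 16 had an unadjusted p under 0.05 and 6.13% of all probes were called in either direction.

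In the SVF, 3 probes (3 genes) were higher in brown than inguinal (1.68%) and 5 (3 genes) higher in brown than epididymal fat (0.92%). The 5 include all 3 probes of Ppargc1b and the 3′ probe of Esrrg. Between inguinal and epididymal SVF none was called, 3 had an unadjusted p under 0.05, and the background was 0.252%. The adipocyte minus SVF difference itself was larger in brown than in epididymal fat for both Esrra probes (background of higher calls 0.35%). It was not called for any probe between brown and inguinal fat (4 with an unadjusted p under 0.05, background 0.748%) or between inguinal and epididymal fat (3 with an unadjusted p under 0.05, background 0.0595%). When the array with mesothelial signal (inguinal SVF replicate 1) and the epididymal one with high Ucp1 (adipocyte replicate 3) were both left out, the calls numbered 19 in place of 22 between fractions, 18 as before between adipocytes, 7 in place of 8 between SVFs, and 0 in place of 2 for the depot comparison of the fraction difference.

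**Figure D1:**
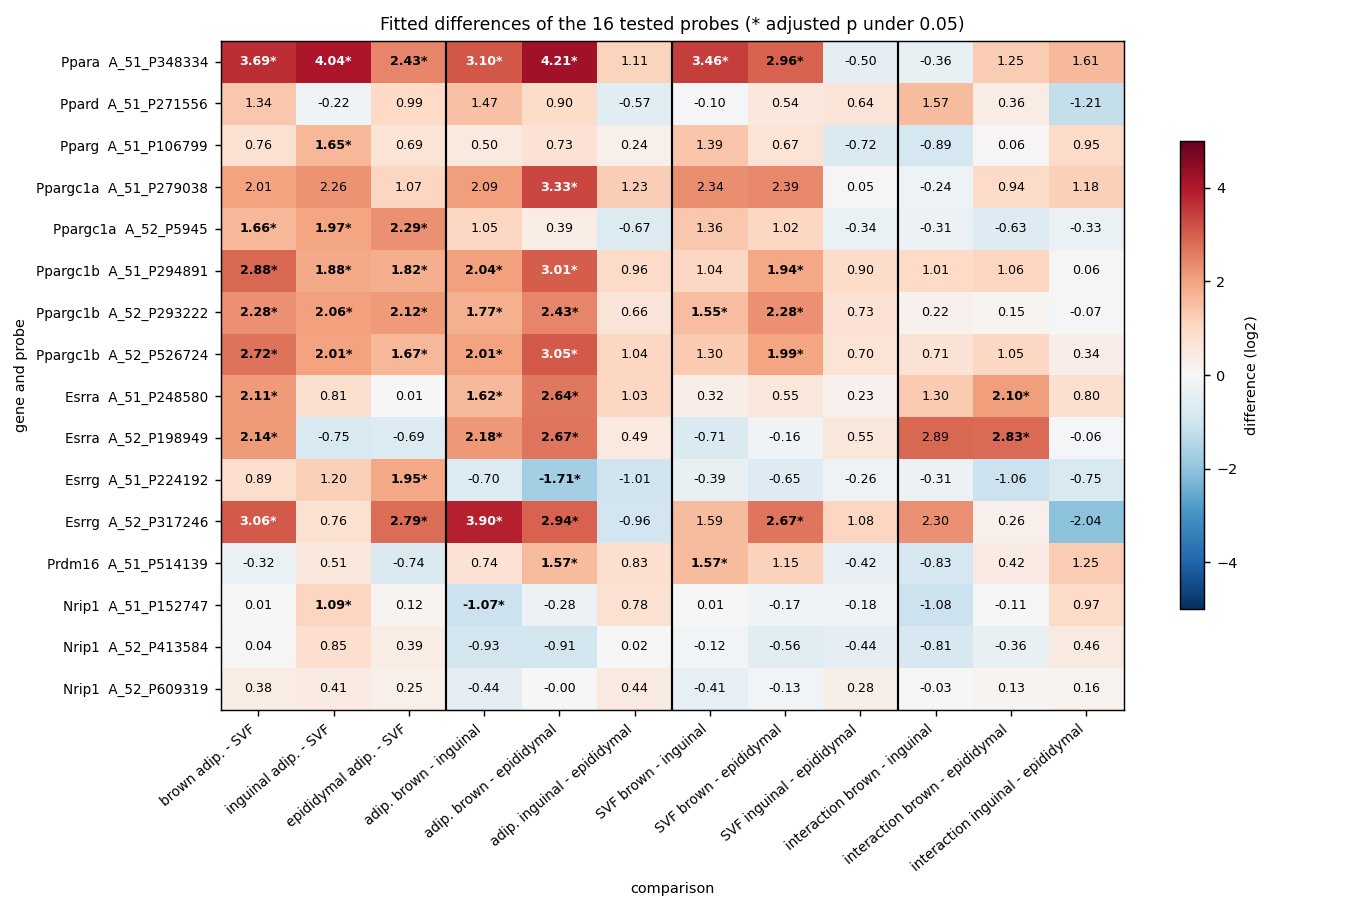
Log2 difference (colour scale, red higher and blue lower in the first-named group) of each of the 16 tested probes in the 12 comparisons, with an asterisk where the adjusted p is under 0.05. Asterisks gather in the fraction columns and in brown against inguinal and epididymal adipocytes, and none stands in the columns of inguinal against epididymal fat.

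Ppara encodes the receptor best known for driving fatty acid oxidation in liver and brown fat. Its probe (A_51_P348334) read 3.82, 3.41 and 4.02 in brown adipocytes and -0.52, 0.70 and 0.02 in brown SVF. Inguinal adipocytes had 0.64, -0.02 and 1.34 and inguinal SVF -2.48, -2.69 and -5.00. Epididymal adipocytes had -0.59, -1.05 and 0.26 and epididymal SVF -2.22, -3.12 and -3.33. Brown adipocytes stood above every other array, adipocytes stood above the SVF of their depot without overlap, and the brown SVF overlapped the adipocytes of both white depots. The adipocyte minus SVF difference was 3.69 ± 0.59 for brown fat (adjusted p = 0.000691), 4.04 ± 0.59 for inguinal fat (0.000873) and 2.43 ± 0.59 for epididymal fat (0.00976). Brown adipocytes exceeded inguinal ones by 3.10 ± 0.59 (0.00535), which is 8.57-fold, and epididymal ones by 4.21 ± 0.59 (0.000344), which is 18.5-fold. Inside brown fat the difference was 3.53 on the slide of replicates 1 and 2 and 4.01 on that of replicate 3.

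Ppara was also higher in the brown SVF than in the inguinal SVF, by 3.46 ± 0.59 (adjusted p = 0.0074), and than in the epididymal SVF, by 2.96 ± 0.59 (0.0164). The brown adipocyte markers (Ucp1, Cidea, Cox7a1, Elovl3 and Dio2) moved with it: their mean level lay between 0.28 and 1.86 in brown SVF, -4.33 and -2.08 in inguinal SVF, and -4.10 and -2.95 in epididymal SVF, with 4 or 5 of the 5 well above background on every brown SVF array. The mean of 5 markers of mural cells of vessels (Acta2, Myh11, Rgs5, Cspg4 and Tagln) also separated these SVFs. It lay between 4.63 and 4.89 in brown, 1.67 and 2.56 in inguinal and 2.56 and 3.09 in epididymal SVF. The part of either marker list in the result was not tested. The call against epididymal SVF was lost without brown SVF replicate 2 (2.64, adjusted p = 0.0866) or 3 (2.98, 0.0617) and without epididymal SVF replicate 2 (2.84, 0.0813) or 3 (2.74, 0.0899). With normexp background correction the calls were lost in inguinal fat (2.03, 0.0953), in epididymal fat (1.91, 0.0504) and in the SVF against inguinal (1.64, 0.0636) and epididymal fat (2.43, 0.0646), and the SVF call against inguinal fat was also lost when only the arrays of those groups were fitted (3.46, 0.176).

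Pparg varied far less. This receptor is required for adipocytes to form, and its probe (A_51_P106799) was well above background on all 18 arrays. It read 5.91, 6.02 and 5.83 in brown adipocytes, 5.56, 5.19 and 4.76 in brown SVF, 5.28, 4.93 and 6.07 in inguinal adipocytes, and 4.28, 4.38 and 2.69 in inguinal SVF. Epididymal adipocytes had 5.57, 5.24 and 4.76 and epididymal SVF 4.98, 4.94 and 3.58. Within a depot, brown and inguinal adipocytes lay above their SVF without overlap and epididymal adipocytes did not. The fraction difference passed the test in inguinal fat (1.65 ± 0.47, adjusted p = 0.0315), while the values in brown (0.76 ± 0.47, 0.315) and epididymal fat (0.69 ± 0.47, 0.314) and all 6 depot differences did not. The largest of the latter, between brown and inguinal SVF, was 1.39 ± 0.47 (0.148). The inguinal call was lost without inguinal SVF replicate 3 (1.10, 0.0967), inguinal adipocyte replicate 1 (1.72, 0.0545) or inguinal adipocyte replicate 3 (1.32, 0.145). Other settings that ended it were quantile normalization (1.34, 0.0965), normexp (1.54, 0.166), the deposited matrix (1.31, 0.086), no filter on dim probes (1.65, 0.0522), array weights (1.06, 0.101) and a fit of the inguinal arrays alone (1.65, 0.19).

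Ppard, the receptor of fatty acid oxidation that is expressed in most tissues, was close to background. Its probe (A_51_P271556) was well above background on 12 of 18 arrays, with levels from -2.80 in brown adipocyte replicate 1 to -6.21 in epididymal SVF replicate 2. Group means ran from -3.19 ± 0.58 in brown adipocytes to -5.08 ± 0.98 in epididymal SVF (SD, n = 3), and neighbouring groups overlapped. None of its 12 comparisons passed the test. The largest between a pair of groups, brown against inguinal adipocytes, was 1.47 ± 0.63 (adjusted p = 0.149).

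The PGC-1 coactivators had their highest group mean in brown adipocytes on all 5 probes, and 4 of these, all but the 3′ probe of Ppargc1a, were higher in brown than in epididymal adipocytes. Ppargc1b, which encodes PGC-1β, had the same pattern on 3 probes. Its brightest probe (A_51_P294891) read 3.27, 3.61 and 3.42 in brown adipocytes, 0.00, 1.14 and 0.51 in brown SVF, 1.65, 0.57 and 1.96 in inguinal adipocytes and -0.47, -0.69 and -0.30 in inguinal SVF. Epididymal adipocytes had 0.63, 0.30 and 0.35 and epididymal SVF -1.18, -1.15 and -1.84. Adipocytes stood above the SVF of the same depot without overlap in all 3 depots, and brown adipocytes stood above every other array. The probes A_52_P293222 and A_52_P526724 had brown adipocyte means of 1.71 ± 0.19 and 2.32 ± 0.08, and epididymal SVF means of -2.84 ± 0.21 and -2.40 ± 0.35 (SD, n = 3), with the same absence of overlap.

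Over the 3 Ppargc1b probes the fraction difference was 2.28 to 2.88 in brown fat (adjusted p 0.000149 to 0.000202), 1.88 to 2.06 in inguinal fat (0.000568 to 0.00356) and 1.67 to 2.12 in epididymal fat (0.000456 to 0.00464). Brown adipocytes exceeded inguinal ones by 1.77 to 2.04 (0.00182 to 0.00311) and epididymal ones by 2.43 to 3.05 (9.53e-05 to 0.000119). In these 5 comparisons all 3 probes were called, whichever array was left out. The difference between brown and epididymal fat in the fraction difference was 1.06 ± 0.50, 0.15 ± 0.39 and 1.05 ± 0.49 over the probes, none called. Normexp ended the inguinal fraction calls of all 3 probes (1.16, 0.98 and 1.22, with adjusted p from 0.108 to 0.203), and a fit of the inguinal arrays alone ended those of A_51_P294891 (1.88, 0.0975) and A_52_P526724 (2.01, 0.0856).

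In the SVF all 3 Ppargc1b probes were higher in brown than in epididymal fat, by 1.94 ± 0.35, 2.28 ± 0.28 and 1.99 ± 0.35 (adjusted p = 0.00879, 0.000473 and 0.00669). A_52_P293222 was also higher than in inguinal SVF, by 1.55 ± 0.28 (0.00924). The brown adipocyte markers had the SVF levels given for Ppara, and their part in the result was not tested. The comparison with epididymal SVF gave 1.74, 2.07 and 1.80 on the scan day of replicates 1 and 2 and 2.36, 2.71 and 2.39 on the slide of replicate 3. With slide as a block all 4 calls were lost (2.05, 2.38 and 1.99 against epididymal SVF with adjusted p of 0.123, 0.0655 and 0.142, and 1.65 with 0.0818 against inguinal SVF). The call of A_51_P294891 was also lost without brown SVF replicate 2 (1.65, 0.0538) or epididymal SVF replicate 3 (1.72, 0.0568), and that of A_52_P293222 against inguinal SVF without brown SVF replicate 3 (1.45, 0.0506), with normexp (0.47, 0.278) and with only those groups' arrays fitted (1.55, 0.225).

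The 2 probes of Ppargc1a, the cold-inducible PGC-1α gene, gave different orders of the groups. The 5′ probe read 2.45, 1.89 and 0.49 in brown adipocytes, -0.18, -1.19 and -0.09 in inguinal adipocytes and -1.19, -2.13 and -1.84 in epididymal adipocytes. Brown SVF had -0.75, 1.26 and -1.73, inguinal SVF -1.83, -2.12 and -4.28, and epididymal SVF -2.13, -2.08 and -4.16. The adipocytes descended from brown through inguinal to epididymal fat without overlap, although the last pair met at -1.19, while the brown SVF reached from -1.73 to 1.26 and overlapped brown and inguinal adipocytes.

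On the 3′ probe, from a cDNA clone record, brown adipocytes had 0.22, -0.43 and -0.20, inguinal adipocytes -1.49, -1.42 and -0.67, and epididymal adipocytes 0.31, -1.24 and -0.64. Brown SVF had -2.32, -0.79 and -2.26, inguinal SVF -3.31, -3.03 and -3.13, and epididymal SVF -2.03, -2.53 and -3.89. Here the epididymal adipocytes overlapped the brown ones, and adipocytes lay above their SVF in every depot.

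The 5′ probe of Ppargc1a was higher in brown than in epididymal adipocytes, by 3.33 ± 0.81 (adjusted p = 0.00895, 10.0-fold), where the 3′ probe gave 0.39 ± 0.51 (0.604). Conversely, the fraction difference passed for the 3′ probe, at 1.66 ± 0.51 for brown (0.0334), 1.97 ± 0.51 for inguinal (0.0196) and 2.29 ± 0.51 for epididymal fat (0.00615). The 5′ probe gave 2.01 ± 0.81 (0.102), 2.26 ± 0.81 (0.075) and 1.07 ± 0.81 (0.366), and its brown value became a call without brown SVF replicate 2 (2.85, 0.0232). The 5′ minus 3′ reading changed by 2.94 log2 units from epididymal to brown adipocytes (exact permutation test of 3 against 3 arrays, two-sided, p = 0.1, adjusted over 6 such tests 0.15). From inguinal to brown adipocytes it changed by 1.04 (the same exact test, p = 0.2, adjusted 0.24). The smallest p this design allows is 0.1, so none of these exact tests could fall under 0.05, and they decide nothing about the probes.

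For the 3′ probe of Ppargc1a the brown fraction call was lost without brown SVF replicate 1 (1.39, adjusted p = 0.141) or 3 (1.42, 0.138), brown adipocyte replicate 1 (1.48, 0.121) or 3 (1.69, 0.0857), with normexp (1.37, 0.101) and with the percentile taken over probes above background on all arrays (1.42, 0.0745). The inguinal call was lost without inguinal SVF replicate 1 (1.89, 0.0525) or inguinal adipocyte replicate 3 (1.71, 0.0937), with normexp (0.77, 0.693), without inguinal SVF replicate 1 together with adipocyte replicate 3 of epididymal fat (1.89, 0.0657) and with the inguinal arrays alone (1.97, 0.0563).

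**Figure D2:**
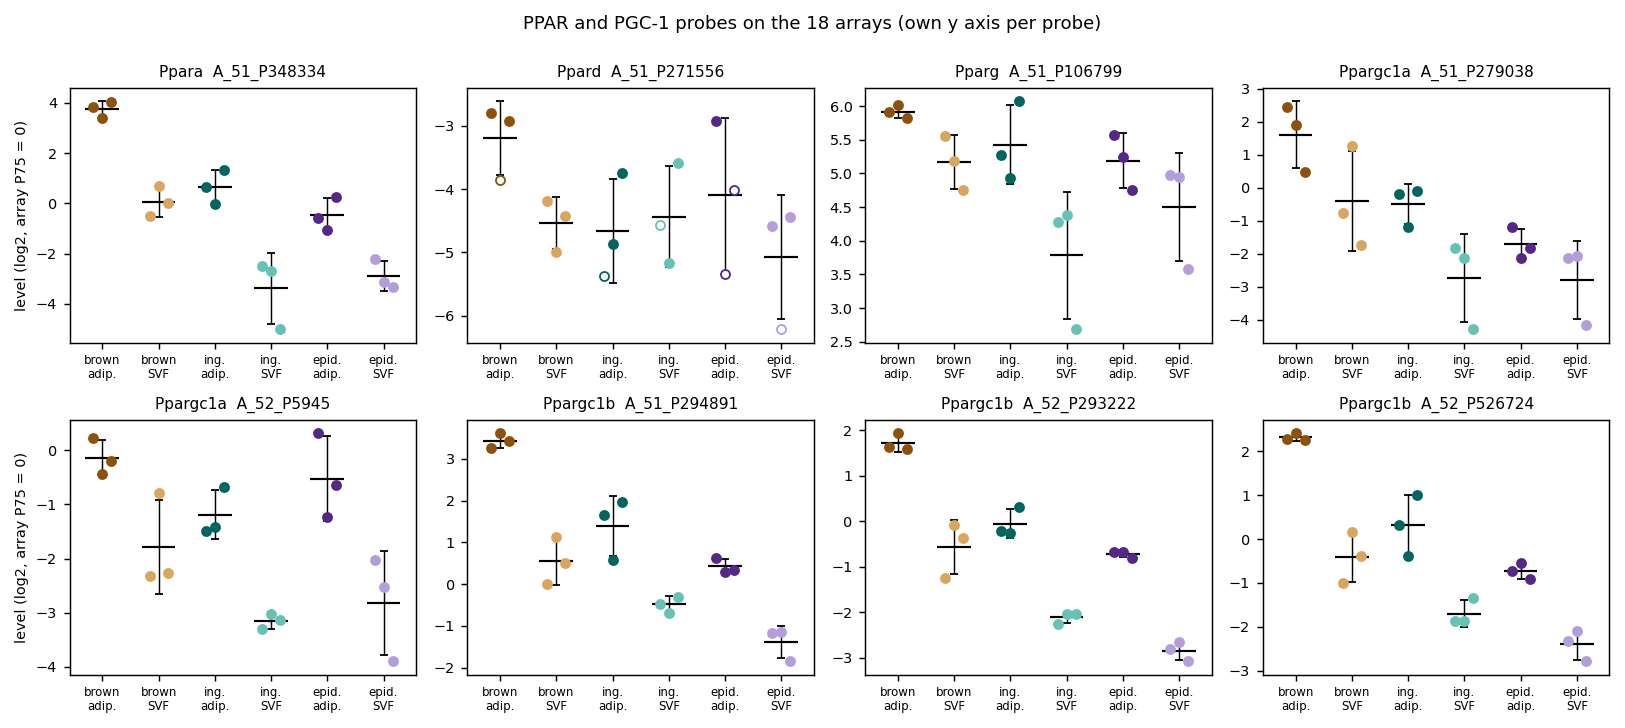
Level (log2 processed signal minus the 75th percentile of the array, vertical axis, its own range for each probe) of the probes of Ppara, Ppard, Pparg, Ppargc1a and Ppargc1b in the 6 groups, with 1 point per array, filled where the signal is well above background, and a bar and error bar for the mean and SD (n = 3). Ppara and all Ppargc1b probes place the 3 brown adipocyte arrays above all others, while the Pparg groups lie close together and the Ppard points are partly open.

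Esrra encodes ERRα, a partner of both PGC-1 proteins at mitochondrial genes, and separated brown adipocytes from everything else. The 3′ probe read 4.29, 3.94 and 4.71 in brown adipocytes, 2.43, 2.16 and 3.49 in inguinal adipocytes and 1.45, 1.62 and 1.93 in epididymal adipocytes. Brown SVF had 2.00, 2.35 and 2.27, inguinal SVF 1.77, 1.59 and 2.29, and epididymal SVF 1.45, 1.55 and 1.97. All 3 brown adipocyte arrays were above the other 15, and the epididymal adipocyte values were inside the range of the SVF values.

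The 5′ probe of Esrra read 0.78, 0.78 and 0.95 in brown adipocytes and -2.30, -0.75 and -0.85 in brown SVF. It read -1.91, -1.74 and -0.37 in inguinal adipocytes, -0.51, -1.44 and 0.18 in inguinal SVF, -1.58, -1.96 and -1.95 in epididymal adipocytes and -1.13, -1.33 and -0.96 in epididymal SVF. Again brown adipocytes were above all other arrays, and the 3 epididymal adipocyte arrays lay below those of their SVF, a difference of -0.69 that was not called.

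The fraction difference of Esrra in brown fat was 2.11 ± 0.33 on the 3′ probe (adjusted p = 0.000609) and 2.14 ± 0.47 on the 5′ probe (0.00519). On single slides it was 1.94 and 2.44 for the 3′ probe and 2.31 and 1.80 for the 5′ probe. In inguinal and epididymal fat neither probe was called, with values of 0.81 and 0.01 on the 3′ probe and -0.75 and -0.69 on the 5′ probe. Brown adipocytes exceeded inguinal ones by 1.62 ± 0.33 (0.00759) and 2.18 ± 0.47 (0.0101), and epididymal ones by 2.64 ± 0.33 (0.000188) and 2.67 ± 0.47 (0.00142). In both depot differences the probes of Esrra gave the same call. The 5′ call against inguinal adipocytes was lost without inguinal adipocyte replicate 1 (1.89, 0.0598) and with normexp (1.34, 0.0552), and the 3′ call when only those groups' arrays were fitted (1.62, 0.0629).

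The fraction difference of Esrra was larger in brown than in epididymal fat, by 2.10 ± 0.47 on the 3′ probe (adjusted p = 0.0376) and 2.83 ± 0.67 on the 5′ probe (0.046). Against inguinal fat the corresponding values were 1.30 ± 0.47 (0.236) and 2.89 ± 0.67 (0.0595), not called. Both calls lie close to the threshold. The 3′ call held without brown adipocyte replicate 2, epididymal SVF replicate 1, epididymal adipocyte replicate 2 or any inguinal array, and was lost without any of the other 9 arrays, at values of 1.90 to 2.23 and adjusted p up to 0.0994. The 5′ call held without brown SVF replicate 2, epididymal adipocyte replicate 2, inguinal adipocyte replicate 3 or any inguinal SVF array, and was lost without any of the other 12, at 2.33 to 3.06 and adjusted p up to 0.109. Normexp (1.98, 0.335, and 2.27, 0.0955) and testing all probes without a filter (2.10, 0.0707, and 2.83, 0.0772) ended both calls, as did leaving out inguinal SVF replicate 1 with epididymal adipocyte replicate 3 (2.23, 0.0618, and 2.77, 0.106), and setting signals below background to a floor ended the 5′ call (2.83, 0.0545).

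Esrrg encodes ERRγ, which is abundant in oxidative tissues such as heart and brown fat, and its probes disagreed. The 5′ probe was well above background on all 18 arrays and read -2.48, -2.85 and -3.40 in brown adipocytes, -1.66, -3.22 and -1.76 in inguinal adipocytes and -0.68, -2.59 and -0.34 in epididymal adipocytes. The brown SVF levels were -3.64, -3.39 and -4.36, those of inguinal SVF -3.33, -3.29 and -3.61, and those of epididymal SVF -2.56, -3.36 and -3.53. The highest readings came from replicates 1 and 3 of epididymal adipocytes, while replicate 2 of that group overlapped brown adipocytes and epididymal SVF.

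The 3′ probe of Esrrg read -1.57, -2.24 and -1.50 in brown adipocytes and -5.35, -4.59 and -4.54 in brown SVF, all well above background. It read -6.51, -5.07 and -5.42 in inguinal adipocytes and -3.62, -6.01 and -4.49 in epididymal adipocytes, where only inguinal replicate 2 and epididymal replicate 1 were well above background. No inguinal SVF array (-6.42, -6.71 and -6.13) and no epididymal SVF array (-7.15, -7.84 and -7.51) was. Brown adipocytes were thus above every other array on this probe, and most of the white fat readings are bounds set by background.

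On the 3′ probe of Esrrg, brown adipocytes exceeded brown SVF by 3.06 ± 0.51 (adjusted p = 0.000859), inguinal adipocytes by 3.90 ± 0.51 (0.000846) and epididymal adipocytes by 2.94 ± 0.51 (0.00124), with 1 of 3 arrays well above background in either white group. The white readings are mostly at background, and with normexp the differences from inguinal and epididymal adipocytes were 0.27 (0.772) and 1.64 (0.145), not called. The probe passed the filter only through the brown fat groups, so its p-values against white fat are no separate evidence that brown is higher. The brown fraction difference was 3.07 on the slide of replicates 1 and 2 and 3.04 on that of replicate 3. Epididymal adipocytes read 2.79 above epididymal SVF (0.0024), with 1 of 3 and 0 of 3 arrays well above background, so no fold is given. The brown SVF read 2.67 above epididymal SVF (0.0116), and at least 1.72-fold as a bound. This bound takes the epididymal signal at the higher of its own level and the lowest level well above background on each array. Both p-values belong to the differences without a floor. With dim signals at the floor the differences were 1.21 (0.0675) and 0.79 (0.655), not called. The brown adipocyte markers differed between these SVFs as given for Ppara, and their part in the result was not tested.

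The 5′ probe of Esrrg ran the other way between adipocytes: brown was lower than epididymal by 1.71 ± 0.54 on the log2 scale (difference -1.71, adjusted p = 0.031), and epididymal adipocytes were above epididymal SVF by 1.95 ± 0.54 (0.0186). From epididymal to brown adipocytes the 5′ minus 3′ reading changed by -4.65, and from inguinal to brown adipocytes by -4.59 (exact permutation test, two-sided, p = 0.1 and adjusted 0.15 for either, the smallest p possible being 0.1). Both values include white adipocyte readings of the 3′ probe of which 1 of 3 per group was well above background, so they describe these readings and not a measured ratio of transcripts. For Esrra the same exact tests gave changes of -0.02 (p = 0.9, adjusted 0.9) and -0.56 (p = 0.1, adjusted 0.15). Over the 18 arrays, which share the 6 groups, Pearson's r between the probes of a gene was 0.16 for Esrrg, 0.80 for Esrra, 0.76 for Ppargc1a and 0.98 to 0.99 for Ppargc1b, given as a description.

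Neither Esrrg probe kept its calls under all settings. The 5′ call in epididymal fat was lost without epididymal SVF replicate 2 (1.84, adjusted p = 0.0677) or 3 (1.76, 0.0683) or epididymal adipocyte replicate 1 (1.69, 0.0871) or 3 (1.51, 0.0877). That between adipocytes was lost without brown adipocyte replicate 2 (-1.74, 0.0644) or 3 (-1.46, 0.114) or epididymal adipocyte replicate 1 (-1.45, 0.118) or 3 (-1.28, 0.142). With only the compared groups fitted they were also lost (1.95, 0.0658, and -1.71, 0.0721). On the 3′ probe the SVF call was lost without brown SVF replicate 2 (2.56, 0.0577) or 3 (2.53, 0.0617) or epididymal SVF replicate 2 (2.50, 0.0678) or 3 (2.67, 0.0503). With normexp all 7 calls of the gene were lost: on the 3′ probe the values became 1.90 (0.0719) and 1.10 (0.298) for the brown and epididymal fraction, the values already given for brown against the other adipocytes and 0.84 (1.0) for the SVF, and on the 5′ probe 1.49 (0.106) and -0.81 (0.48). The floor for dim signals and the deposited matrix ended the 3′ calls in the epididymal fraction (1.21, 0.0675, and 0.42, 0.11) and the SVF (0.79, 0.655, and 0.71, 0.0841).

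Esrrb, best known from embryonic stem cells, was hardly detected. Its probes, 6320 bases apart, were well above background on 1 and on 4 of 18 arrays. The first (A_51_P419047) was so only in epididymal adipocyte replicate 1, at -4.31. The second (A_52_P628212) was so in inguinal adipocyte replicate 3 (-5.07), epididymal adipocyte replicates 1 and 2 (-3.16 and -4.99) and epididymal SVF replicate 1 (-5.53). No brown array was among them, and no difference was tested. Epididymal adipocyte replicate 1 had more spots well above background (87.9%) than any other array (49.6% to 72.3%).

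**Figure D3:**
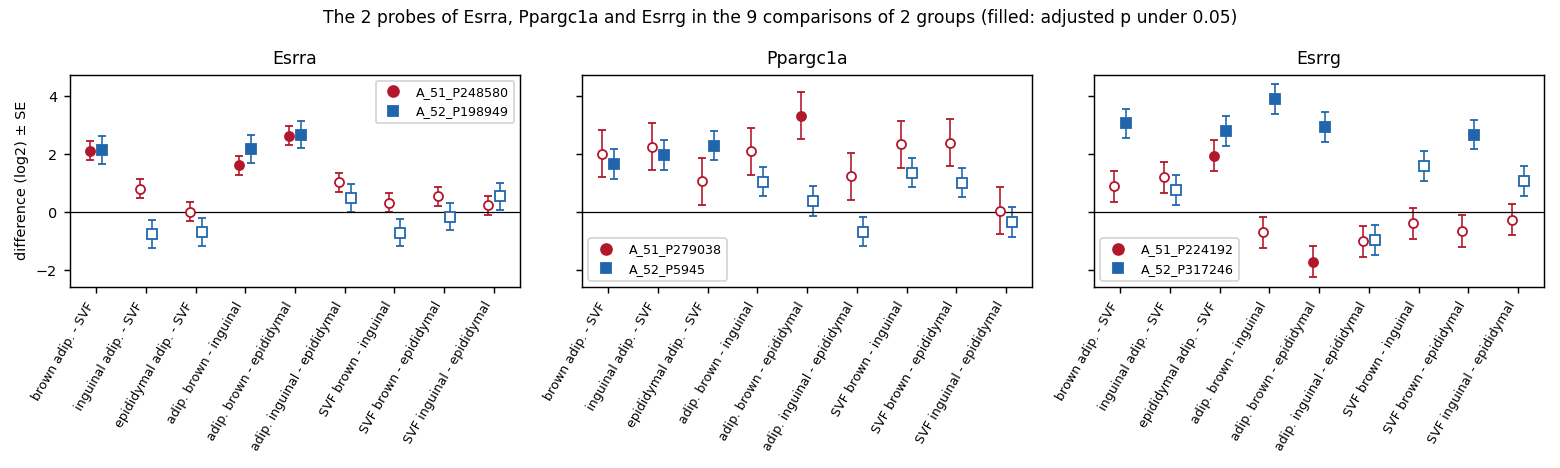
Log2 difference ± SE (vertical axis) on both probes of Esrra (circle 3′, square 5′), Ppargc1a and Esrrg (circle 5′, square 3′) in the 9 comparisons between 2 groups, filled where called. The Esrra points lie side by side in brown fat and in brown against the other adipocytes, whereas the Esrrg probes stand on opposite sides of 0 in brown against inguinal and epididymal adipocytes.

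Prdm16, which with its partners activates brown fat genes, was well above background on every array. It was called in some of the depot differences and in no fraction difference. Its single probe (A_51_P514139) read 2.21, 2.21 and 1.76 in brown adipocytes and 2.73, 2.36 and 2.04 in brown SVF. It read 1.12, 1.04 and 1.79 in inguinal adipocytes and 0.83, 1.32 and 0.26 in inguinal SVF, and 0.58, 0.50 and 0.38 in epididymal adipocytes and 1.67, 1.52 and 0.49 in epididymal SVF. All brown arrays but adipocyte replicate 3 lay above all white fat arrays, and both brown fractions overlapped each other. Prdm16 was higher in brown than in epididymal adipocytes by 1.57 ± 0.35 (adjusted p = 0.00537) and in brown than in inguinal SVF by 1.57 ± 0.35 (0.0298). The fraction differences were -0.32 ± 0.35 (0.592), 0.51 ± 0.35 (0.341) and -0.74 ± 0.35 (0.138) in brown, inguinal and epididymal fat. Brown against inguinal adipocytes gave 0.74 ± 0.35 (0.183) and brown against epididymal SVF 1.15 ± 0.35 (0.153).

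The SVF call of Prdm16 was 1.47 on the scan day of replicates 1 and 2 and 1.78 on the slide of replicate 3. It was lost without brown SVF replicate 1 (1.40, adjusted p = 0.138), 2 (1.58, 0.0741) or 3 (1.74, 0.0571) or inguinal SVF replicate 1 (1.58, 0.0533) or 3 (1.30, 0.102). It was also lost with array weights (1.17, 0.0689), with no filter on dim probes (1.57, 0.0555), and with the fit limited to its groups (1.57, 0.227), to the arrays of its software version (1.57, 0.0672, an alternative chosen after seeing the data) or to all but the 2 arrays with mesothelial or brown adipocyte signal (1.58, 0.0726). The adipocyte call held in those of these settings that could be run for it, which leaves out the fit on 1 software version. The brown adipocyte markers separate the SVFs as given for Ppara, and their part in the Prdm16 difference was not tested.

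Nrip1, the corepressor, was lower in brown than in inguinal adipocytes on 1 of its 3 probes. This probe (A_51_P152747) read 1.83, 1.74 and 1.23 in brown adipocytes, 2.39, 2.62 and 2.99 in inguinal adipocytes and 2.13, 2.11 and 1.42 in epididymal adipocytes. The brown SVF readings were 1.41, 1.76 and 1.60, those of inguinal SVF 1.45, 2.08 and 1.21, and those of epididymal SVF 1.62, 1.72 and 1.95. Inguinal adipocytes were above all other arrays, and the other 5 groups overlapped. Brown minus inguinal adipocytes was -1.07 ± 0.29 (adjusted p = 0.0279) and the inguinal fraction difference 1.09 ± 0.29 (0.0215). The probe A_52_P413584, 3077 bases from it, gave -0.93 ± 0.38 (0.125) and 0.85 ± 0.38 (0.146), and A_52_P609319, 60463 bases away, -0.44 ± 0.42 (0.546) and 0.41 ± 0.42 (0.544). None of the other comparisons was called on any probe.

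Both calls of Nrip1 were fragile. The inguinal fraction call was lost without inguinal SVF replicate 1 (1.02, adjusted p = 0.0592) or 3 (0.90, 0.0561) or inguinal adipocyte replicate 3 (0.93, 0.0987), with array weights (0.63, 0.153), normexp (0.83, 0.388), the inguinal arrays alone (1.09, 0.205) or with that SVF array and adipocyte replicate 3 of epididymal fat left out (1.02, 0.054). The adipocyte call was lost without brown adipocyte replicate 1 (-1.18, 0.0532) or 3 (-0.88, 0.117) or inguinal adipocyte replicate 1 (-1.20, 0.0549), 2 (-1.09, 0.0729) or 3 (-0.91, 0.0599), with normexp (-0.70, 0.298) and with only those arrays (-1.07, 0.0821).

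**Figure D4:**
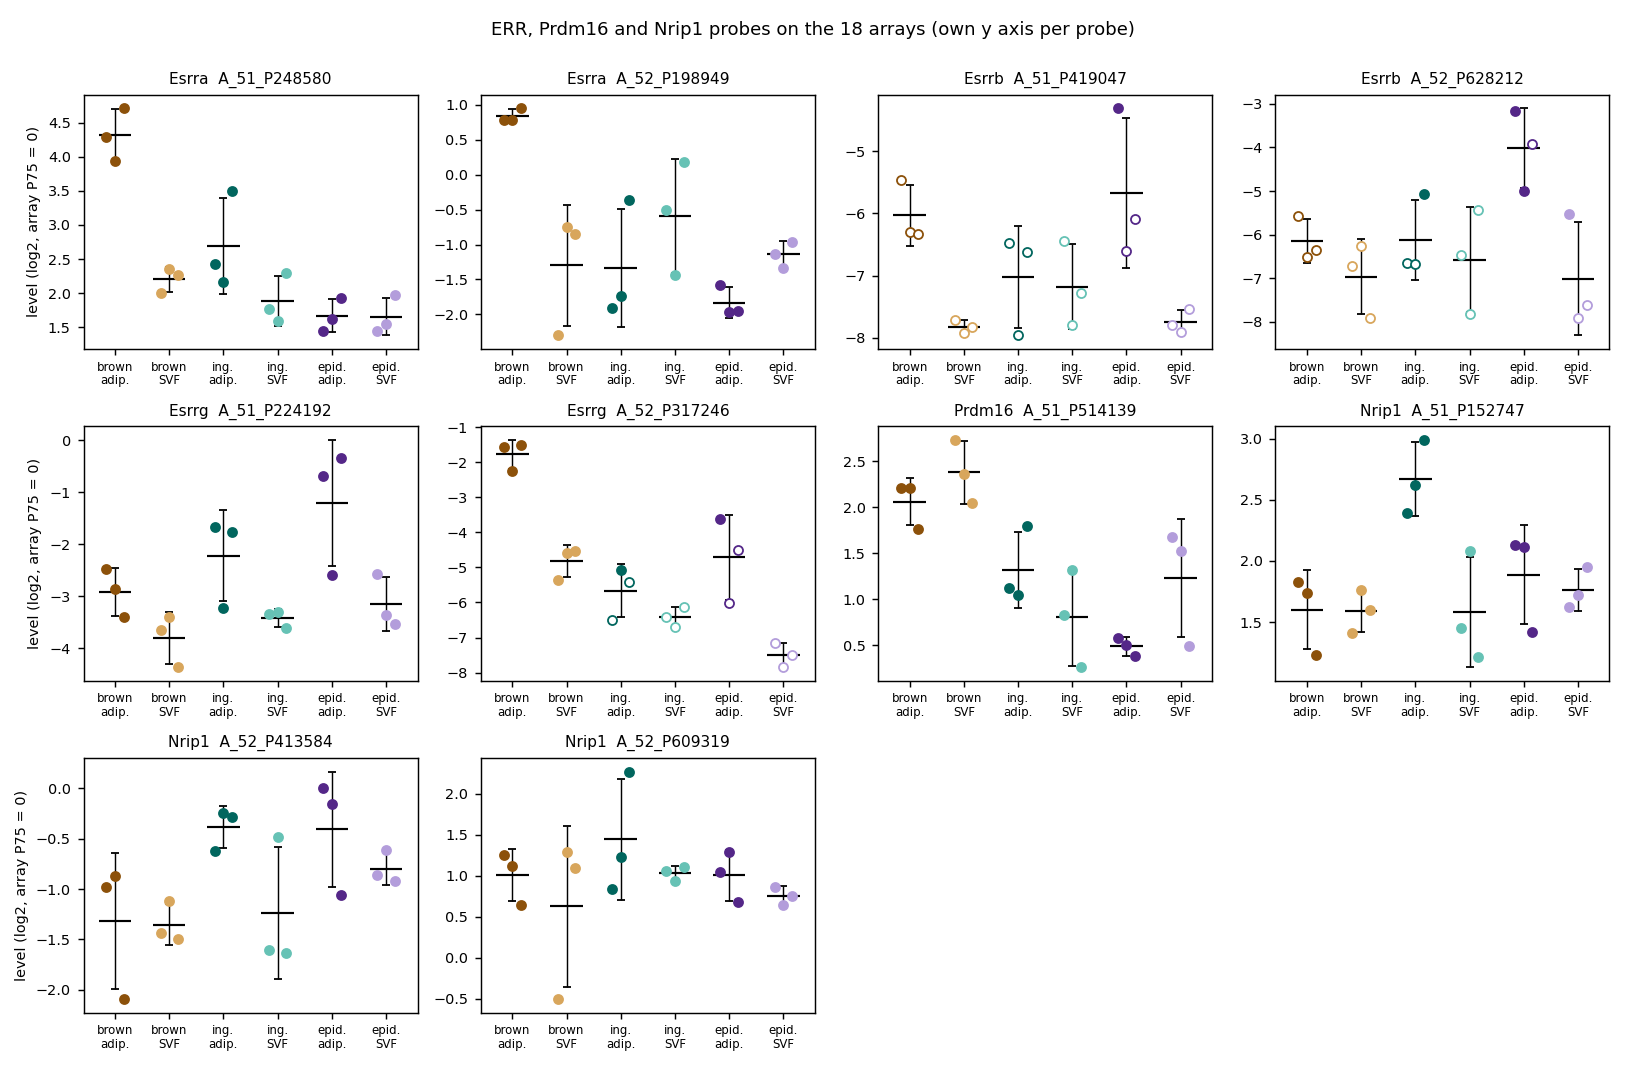
Level (log2 processed signal minus the 75th percentile of the array, vertical axis, its own range for each probe) of the probes of Esrra, Esrrb, Esrrg, Prdm16 and Nrip1 in the 6 groups, with 1 point per array, filled where well above background, and the mean and SD (n = 3). Both Esrra probes and the 3′ Esrrg probe place brown adipocytes above all other arrays, the 5′ Esrrg probe does not, and the Esrrb points are mostly open.

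Partners and targets of these regulators were read on the brightest tested probe of each gene. Of all tested probes, 10.9%, 9.17% and 16.3% were higher in adipocytes than SVF of brown, inguinal and epididymal fat (medians 0.12, 0.01 and 0.08). In brown against inguinal and epididymal adipocytes 6.14% and 11.0% were higher and 4.96% and 14.1% lower (medians 0.18 and 0.01). Brown SVF had 1.68% and 0.92% higher than inguinal and epididymal SVF (medians 0.07 and 0.03). The counts of the lists stand beside these shares. For genes lower in adipocytes than SVF the share of all probes is not reported here, so those counts have no background. The retinoid X receptors, the DNA-binding partners of PPARs, had 3 genes, and Rxrg was higher in adipocytes than SVF in inguinal (3.51 ± 0.59, adjusted p = 0.00197) and epididymal fat (2.99 ± 0.59, 0.00355). In brown fat the call of Rxrg (1.98 ± 0.59, 0.03) was lost without any of the 6 brown arrays, at adjusted p from 0.0545 to 0.104. Rxrb was higher in brown than in epididymal adipocytes (1.48 ± 0.27, 0.00196), its calls in brown fat (0.86 ± 0.27, 0.0414) and between inguinal and epididymal adipocytes (0.98 ± 0.27, 0.0476) were each lost in over 10 of the 18 fits with 1 array left out, and Rxra was called in none of the 12 comparisons.

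Of 17 other coactivators and corepressors, 12 were called in no comparison, among them Ncoa1, Ncoa2, Ncoa3, Ncor1, Ep300, Med1, Hdac3 and the third PGC-1 family gene Pprc1. The share of all genes called in no comparison was not counted. Perm1, a muscle gene named for its regulation by PGC-1 and ERR, was called most often in this list. It was higher in brown adipocytes than in brown SVF (2.44 ± 0.41, adjusted p = 0.000955), inguinal adipocytes (3.43 ± 0.41, 0.000592, 2 of 3 inguinal arrays well above background) and epididymal adipocytes (3.95 ± 0.41, 5.07e-05, 1 of 3). Neither white adipocyte group had all 3 arrays well above background, as the filter requires, so both differences include readings at background. With normexp the difference from inguinal adipocytes was 0.69 (0.382), not called. Because Perm1 is a muscle gene, the skeletal muscle markers are given beside it. The mean of the 7 lay between -2.82 and -0.52 in brown adipocytes and -1.54 and -0.11 in brown SVF. It lay between -1.15 and -0.90 in inguinal adipocytes and -3.55 and -2.78 in epididymal adipocytes. In inguinal SVF it was -2.89, 1.47 and -3.65, and in epididymal SVF it lay between -4.28 and -3.79. The part of these markers was not tested. Sirt1, a deacetylase that acts on PGC-1α, was higher in brown than epididymal adipocytes (1.75 ± 0.30, 0.00124).

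The other coactivators and corepressors moved little: their median difference was 0.09, -0.02 and -0.07 between fractions of brown, inguinal and epididymal fat. No gene of the list was called in inguinal fat, where 4 had an unadjusted p under 0.05. In epididymal fat Tle3, a PPARγ coregulator, was higher in adipocytes (0.77 ± 0.24, adjusted p = 0.029), and Sirt1 (-0.95 ± 0.30, 0.0346) and the acetyltransferase Crebbp (-0.81 ± 0.25, 0.029) were lower. The calls in this comparison numbered 1 in place of 3 without epididymal SVF replicate 1 or adipocyte replicate 3 of that depot, and 0 without its SVF replicate 2, its SVF replicate 3 or its adipocyte replicate 1. With normexp there were 0, and without inguinal SVF replicate 1 together with adipocyte replicate 3 of epididymal fat 1 higher and 0 lower.

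Target genes of PPARγ in lipid storage were higher in adipocytes than SVF in most cases, and few were called between adipocytes of different depots. Of 14 measured genes 12 were higher in brown adipocytes than in SVF (median 2.44), led by Gk, which phosphorylates glycerol (3.88 ± 0.60, adjusted p = 0.00056), and Plin1, the lipid droplet coat (3.68 ± 0.78, 0.00404). In inguinal fat 12 were higher (median 3.21, Gpd1 6.10 ± 0.73, 0.000271) and in epididymal fat 10 (median 2.20, Adipoq 4.34 ± 0.83, 0.00307). None was lower. Adipoq, Plin1, Cidec and Lipe are also mature adipocyte markers, so their fraction differences are no observation separate from the separation of the fractions. The brown count fell to 5 without brown SVF replicate 1 and to 6 without brown SVF replicate 3 or brown adipocyte replicate 3. Among adipocytes only Gk was higher in brown than in inguinal fat (3.70 ± 0.60, 0.00219, lost with normexp at 1.65, 0.0906). Gk (4.65 ± 0.60, 0.000217) and Gpd1 (2.65 ± 0.73, 0.0163) were higher in brown than in epididymal fat, with the Gpd1 call lost without brown adipocyte replicate 3 (2.54, 0.055) or epididymal adipocyte replicate 1 (2.48, 0.0587).

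Fatty acid oxidation genes that PPARα and PPARδ control followed both fraction and depot. In brown fat 14 of 16 were higher in adipocytes than SVF (median 2.74), among them Plin5, which ties lipid droplets to mitochondria (4.17 ± 0.71, adjusted p = 0.001), and 1 was lower. Inguinal fat had 15 higher (median 2.77, Plin5 6.81 ± 0.71, 0.000169), but 9 with normexp. Epididymal fat had 9 higher (median 1.66, Fgf21 5.45 ± 1.02, 0.00276, 1 of 3 SVF arrays well above background) and 1 lower. Brown adipocytes were higher than epididymal ones for 11 genes (median 2.33), led by Cpt1b, the carnitine transferase of muscle and brown fat (4.91 ± 0.72, 0.000453), and lower for 3, among them the hormone Fgf21 (-3.39 ± 1.02, 0.0252, 1 of 3 brown arrays well above background) and Vnn1 (-2.67 ± 0.71, 0.0143). The Fgf21 call was lost without brown adipocyte replicate 1 (-3.38, 0.0644) or 3 (-2.97, 0.0946) or epididymal adipocyte replicate 2 (-3.32, 0.0521) or 3 (-3.07, 0.09), and with normexp (-1.67, 0.103), and the Vnn1 call without epididymal adipocyte replicate 1 (-2.47, 0.0547). These counts fell to 7 higher and 2 lower without brown adipocyte replicate 3, and to 7 higher and 1 lower with normexp. Against inguinal adipocytes 7 were higher (median 1.48, Hadha 2.00 ± 0.38, 0.00497) and 2 lower, among them Vnn1 (-3.16 ± 0.71, 0.0121), and without inguinal adipocyte replicate 1 only 3 were higher. Fgf21 and Vnn1 thus differed between brown and epididymal adipocytes in the direction opposite to Ppara.

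Mitochondrial targets of PGC-1 and the ERRs, 16 genes, had 11 higher in brown adipocytes than SVF (median 1.87, Idh3a of the citrate cycle 2.76 ± 0.40, adjusted p = 0.000384) and 11 in inguinal fat (median 1.65, Idh3a 3.70 ± 0.40, 0.000181). Epididymal fat had 5 (median 0.83, Vegfa 3.49 ± 0.64, 0.00258), and 3 without SVF replicate 2, adipocyte replicate 1 or adipocyte replicate 3 of that depot. With normexp the inguinal count was 1 and the epididymal count 2. Brown exceeded epididymal adipocytes for 12 (median 2.03, Cyc1 of complex III 2.85 ± 0.38, 0.000271) and inguinal adipocytes for 9 (median 1.29, Sdhb of complex II 1.88 ± 0.38, 0.00756). The count of 9 became 5 without brown adipocyte replicate 1, 4 without brown adipocyte replicate 3 or inguinal adipocyte replicate 2, and 1 without inguinal adipocyte replicate 1, and with normexp it was 5. Tfam and Nrf1, regulators of mitochondrial DNA and of respiratory genes that PGC-1α is known to induce, were called in no comparison, nor was Ckmt2.

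The partners of Prdm16 and brown-selective genes (12) were the list with most calls between SVFs. Of them 6 were higher in brown than inguinal SVF (median 2.23, background 1.68%) and the same number in brown than epididymal SVF (median 1.79, background 0.92%). The list includes the brown adipocyte markers Ucp1, Cidea, Cox7a1, Elovl3 and Dio2, and part of it was chosen as brown-selective. Higher calls of these genes in brown fat are therefore no finding separate from the markers. Ucp1 led with 9.60 ± 1.55 (adjusted p = 0.00486) and 9.31 ± 1.55 (0.0047), with 1 of 3 inguinal and 1 of 3 epididymal SVF arrays well above background, followed by Cidea, a lipid droplet protein of brown fat (7.44 ± 1.00, 0.0016, and 7.57 ± 1.00, 0.000849). The fraction difference was called for 7 genes in each depot, with medians of 2.62, 3.21 and 1.90 in brown, inguinal and epididymal fat, while the Prdm16 values themselves were not called. With normexp the epididymal count was 4. Brown was higher than epididymal adipocytes for 7 (median 3.17, Ucp1 7.71 ± 1.55, 0.00314) and higher than inguinal adipocytes for 3 (median 2.00, Dio2 3.56 ± 0.43, 0.000605, with normexp 1.82, 0.108), a count that was 5 without inguinal adipocyte replicate 3 or epididymal adipocyte replicate 3. Ebf2, Irf4, Zfp516 and Elovl3 were called in no comparison.

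In the target lists the genes called in brown against inguinal SVF that held whichever array was left out were Gpd1 (4.13 ± 0.73, adjusted p = 0.00866), Plin5 (4.13 ± 0.71, 0.0074) and Idh3a (2.26 ± 0.40, 0.00872), all higher in brown. They belong to the PPARγ, fatty acid oxidation and mitochondrial lists, which had 1, 3 and 1 higher genes there. The PPARγ count was 4 without inguinal SVF replicate 2 and 2 without inguinal adipocyte replicate 3, and the fatty acid oxidation count was 1 without brown SVF replicate 2, brown SVF replicate 3 or inguinal SVF replicate 3. The mitochondrial count was 2 without inguinal SVF replicate 2 and 3 without inguinal adipocyte replicate 3. With normexp the counts were 7, 5 and 3. The brown adipocyte markers moved with these genes, at the levels given for Ppara, and their part was not tested.

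**Figure D5:**
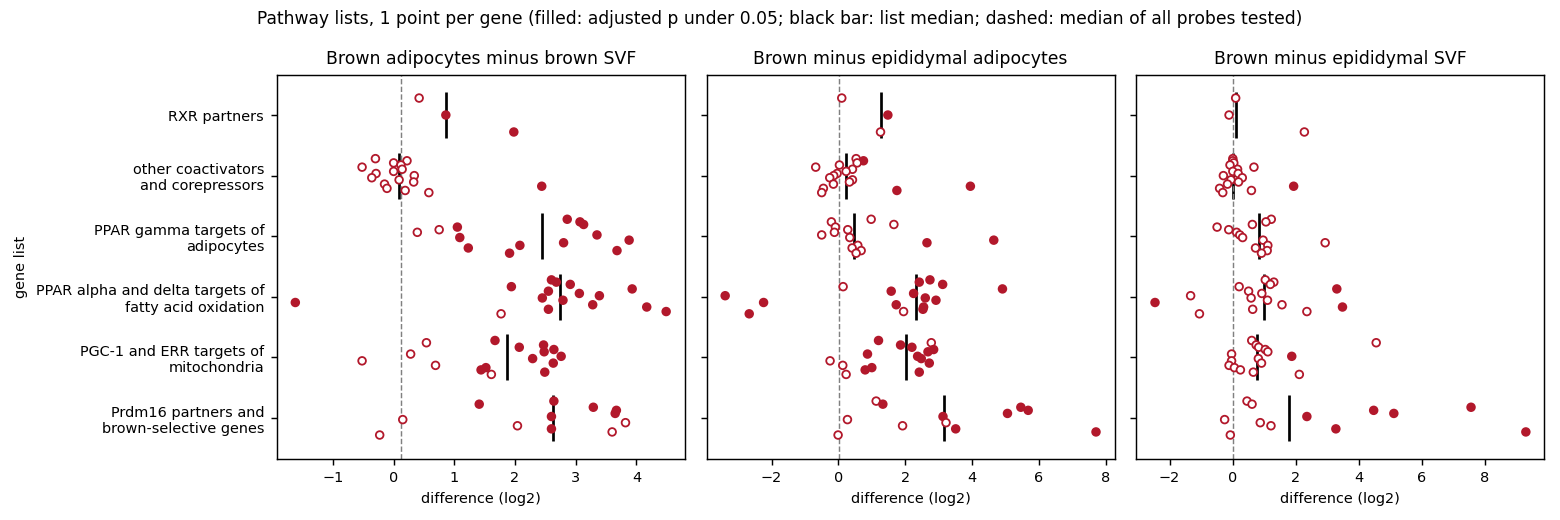
Log2 difference (horizontal axis) of each gene of the 6 lists in brown adipocytes minus brown SVF, brown minus epididymal adipocytes and brown minus epididymal SVF, with 1 point per gene, filled where called, a black bar at the list median and a dashed line at the median of all probes. The coactivator list centres at 0.09 in brown fat, next to the dashed line at 0.12, while the fatty acid oxidation list centres at 2.74.

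The genes whose levels ran most like each member over the 18 arrays were named by Pearson's r, as a description, since the arrays share the 6 groups. For Ppara they were Acadm (0.98), Acadl (0.97) and Hadh (0.97), enzymes of fatty acid oxidation. For Ppargc1b they included Coq8a of ubiquinone synthesis and Pfkl of glycolysis (0.96 each), and for the 3′ Esrra probe Letmd1 (0.98), the malate carrier Slc25a11 (0.98) and Pgk1 of glycolysis (0.97). The 5′ probe of Ppargc1a ran with Acly (0.92) and Acaca (0.91), both of fatty acid synthesis, and with Pacc1 (0.91).

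Pparg was most like Riok3 (0.93), Kif1b (0.92) and Tppp (0.92), and Prdm16 most like Dock9, Slmap and Sema7a (0.93 each). The 5′ Esrrg probe had Plekhn1 (0.98), Car9 (0.96) and Zscan10 (0.96), the Nrip1 probe Irs1 (0.84), Cenpu (0.84) and Kat2b (0.82), and the dim Ppard probe Prss41 (0.93), Zfp869 (0.92) and Ascl2 (0.90).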

How the data were processed

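The arrays are 1-colour Agilent 4x44K mouse arrays. Per the file headers, images were read with Agilent Feature Extraction, version 10.5.1.1 for 12 arrays and 9.5.3.1 for 6, and the deposited processed signal is a background-corrected intensity. The deposited series matrix holds log2 values of 31161 probes with medians from 8.12 to 8.13; its normalization is not given in the sources used here, and it served as an alternative. All 18 of its columns matched best an array of their own group, but 4 of 18 the array with the same replicate number.

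Controls were left out, as were spots with a non-uniformity or population outlier mark. The other spots of a probe were averaged and each array's 75th percentile (338 to 1259 in signal) was subtracted after taking log2. No spot was saturated. Of 41174 probes 28595 were tested. Precision is limited by 3 arrays per group. Names come from RefSeq by accession for 24375 probes, by symbol for 6301, by synonym for 2426 and from the array for 8072. Differences, 12 comparisons in all, were tested per probe with limma (version 3.58.1; lmFit, eBayes, two-sided, means of 6 groups, prior of 3.23 degrees of freedom), checked on simulated data, with Benjamini-Hochberg adjustment over all probes of a comparison. A bound ("at least") takes each dim array of the lower group at the higher of its own signal and its lowest signal well above background. Named genes were every probe of the members, called list genes by size of difference, up to 4 in a direction, and the 3 genes most correlated with a member. Members and lists were chosen with earlier results of these data known. Pck1 of the PPARγ list was not among the named probes. Some list genes and correlated genes are not reported here.

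Same-numbered epididymal fractions deviated together (correlations 0.366, 0.477 and 0.188), whereas those of brown (-0.096, -0.049 and 0.402) and inguinal fat (-0.096, 0.065 and -0.206) did not. A replicate block within epididymal fat changed none of its 7 calls. Alternatives were another normalization, normexp (on median signals, since mean signals are not in every file), the deposited matrix, the filter, spot flags, the percentile, slide, scan day and replicate blocks, a floor, array weights, and arrays left out.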

Additional observations from a re-analysis of the deposited data

Results flagged for a closer look

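The adipocyte minus SVF difference of Esrra was larger in brown than in epididymal fat by 2.10 on the 3′ probe (A_51_P248580) and by 2.83 on the 5′ probe (A_52_P198949), and both differences between depots passed the test itself. Both passed closely (limma, adjusted p = 0.0376 and 0.046). The calls were lost in 9 and 12 of 18 fits with 1 array left out, and both were lost with normexp and with no filter on dim probes. The brown adipocyte arrays share slides with the brown SVF, while the epididymal adipocyte arrays have slides and a software version of their own, which cannot be told apart from the group.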

How the results depend on the processing

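None of the 50 called member values changed sign under any setting; 35 kept their call whichever array was left out, and 22 did so under every setting as well. Between fractions 22 probe and comparison pairs were called, 10 with normexp, 10 with the brightest probe of each gene, which leaves fewer tests, and 19 to 23 with 1 array left out. Between adipocytes 18 were called, 10 with the brightest probe, 16 to 20 with 1 array left out. Between SVFs 8 were called, 4 with the brightest probe, 5 with slide as a block, 13 with scan day as a block, 5 with only the compared groups' arrays and 4 to 9 with 1 array left out: 4 without brown SVF replicate 2 or 3 and 5 without epididymal SVF replicate 3. For the depot comparison of the fraction difference 2 were called, 0 with normexp, 0 without a filter, 0 without inguinal SVF replicate 1 and epididymal adipocyte replicate 3, 1 with the brightest probe, 4 in the deposited matrix, 7 with array weights and 0 to 4 with 1 array left out. The replicate block gave 25, 20, 8 and 3 calls in these families and ended none of the 50. Normexp ended 23 and moved the median of all probes by up to -0.56 (SVF, brown minus inguinal). Apart from the fewer tests named, the cause was not tested. The probes of Esrrb and Ppard and the 3′ probe of Esrrg in white fat are limited by signal over background.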
